A study of Mus musculus with 13 samples.

Results

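GFP-positive clusters and GFP-positive colonies from reprogramming of mouse fibroblasts with small molecules were compared, with 1 RNA library of each. The cells carried an Oct4-GFP reporter. The 2 libraries are separate samples, so their differences are not changes followed in the same cells. Genes were compared where the symbol was unique and the higher of both libraries reached 5 RPKM (reads per kilobase of gene, scaled to library size). The libraries came from different sets. A gene was therefore kept only if the sets differed by less than 1 log2 unit in fibroblasts and again in embryonic stem cells. Of 15176 genes, 3144 reached 5 RPKM and 1771 of these passed both conditions, while 1373 did not. In the colonies, Pou5f1 and Dppa5a of pluripotent cells stood at levels near those of embryonic stem cells. Nanog, Sox2 and Esrrb stayed below the embryonic stem cells there, and Klf2 was lower than in the clusters. A group of endoderm, basement membrane and epithelial genes was much higher than in the clusters, and Star, Ptgs2, Stc1, Fzd1 and the fibroblast genes Fn1 and Twist1 were much lower. The fibroblast genes Col1a1, Col1a2 and Vim, left out by the condition on sets, were not lower.

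Pou5f1 encodes Oct4, the homeodomain factor at the centre of the pluripotency network, and a reporter driven by its regulatory sequence marks cells on the way to that state. Reprogrammed fibroblasts are known to lose mesenchymal matrix and adhesion genes and to gain epithelial and pluripotency genes. Gata4, Gata6 and Foxa2 are regulators of endoderm, and primitive endoderm is the early embryonic lineage that lays down a basement membrane of laminin and type IV collagen.

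The clusters and colonies were picked by hand from cultures of strain C57xICR under the mix coded VC6TF+Z. GFP-negative cells of the same strain were picked from cultures under VC6TF (n = 2). Untreated mouse embryonic fibroblasts (MEF, n = 3) were C57xICR too, and untreated embryonic stem cells (ESC) were the R1 line of strain 129 (n = 4), kept on mitomycin C-treated MEF feeders. Chemically induced lines 6 and 11 (CiPSC, n = 2, C57xICR, VC6TFMB+Z) grew on the same kind of feeder. The labels call every picked sample a fibroblast by cell type, give no day for the clusters or the colonies, and do not say how many were pooled. Nothing in them says that libraries of a group came from separate cultures or animals, so p-values measure the spread between these libraries, which may be technical.

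Both libraries and 8 others (MEF replicates 1 to 3, both GFP-negative, ESC replicates 1 to 3) held values per kilobase of gene span, introns included. Their depth, estimated from the size of 1 read, was 8.88 M reads in the clusters, the lowest of the 10, and 9.99 M in the colonies. RPKM summed over genes to 67647 in the clusters and 164054 in the colonies. Levels of different genes are not comparable per exon on this scale, so levels are compared within a gene. Intervals of fold differences are exact binomial and cover counting error only.

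The label of the clusters was checked first. Pou5f1 in the library labelled GFP-positive clusters was 0.2603 RPKM, or 11 estimated reads, between the GFP-negative values of 0.191 and 0.429. None of the 7 ESC markers reached 1 RPKM there (summed RPKM 1.25), against 5 of 7 in the colonies (648) and 7 of 7 in each ESC library (842 to 1006). Pou5f1 RNA in that library thus goes against its GFP-positive label, and whether the GFP signal there stood for Pou5f1 RNA was not tested. Each difference below is one between the libraries so labelled. The 6 fibroblast markers summed to 159 RPKM in the clusters and 39.4 in the colonies. They summed to 702, 617 and 2384 in MEF replicates 1 to 3 and 10.4 to 23.8 in ESC. Of these markers Thy1 and Twist1 were lower in the colonies (−3.72 and −3.87 log2 units), whereas Col1a1 and Col1a2 were not (0.26 and 0.14). Such sums carry no condition on library sets, and Col1a1 differed by 2.53 log2 units between the MEF sets. Fewer cells of a type and less RNA per cell cannot be told apart in such samples.

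Markers of other cell types moved between the libraries as well. The 3 measured primitive endoderm markers (Gata4, Gata6 and Foxa2) summed to 4.10 RPKM in the clusters and 33.8 in the colonies, with 0.0476 to 0.0883 in ESC. Macrophage and blood markers (5 of 7 measured) summed to 1.13 in the clusters, where Lyz2 and Fcer1g were at 0, and to 22.1 in the colonies. In replicates 1 to 3 they summed to 18.7, 29.9 and 199.5 for MEF and to 3.47, 3.36 and 10.9 for ESC. Replicate 3 of both is of the same library set as the colonies, and the sums carry no condition on sets. Cd68 alone differed by 3.80 log2 units between the MEF sets. The endothelial sum (3 of 4 measured) was 24.6 in the clusters, nearly all of it Kdr, and 6.01 in the colonies. The muscle sum was 24.96 in the clusters, nearly all of it Des, with Myod1 and Actc1 at 0, and 1.51 in the colonies. Keratinocyte markers summed to at most 0.0198 in either library and to 7.44 to 16.1 in GFP-negative cells. Their part in the results was not tested.

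Of the 1771 genes, 680 (38.4%) were higher in the colonies by 1 log2 unit or more and 534 (30.2%) were lower, on log2(RPKM + 1). At 2 log2 units or more, 407 genes (23%) were much higher and 247 (13.9%) much lower. Differences ran from −6.05 for Star to 8.63 for Dppa5a, with a median of 0.15. With 1 library on each side no test was possible, and these counts are descriptions of 2 libraries. The balance depended on scaling. Over all 3144 genes at the floor the median difference was 0.91, and after centring on it the share of higher genes among those past 1 log2 unit went from 56.0% to 34.1%, and past 2 log2 units from 62.2% to 23.1%. Directions of single genes and lists below are as measured, and those between 0 and 0.91 turn over when centred. A gene under 5 RPKM in 1 library entered through the other, so its direction followed from the rule. A shared direction within a list is therefore a description only.

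**Figure D1:**
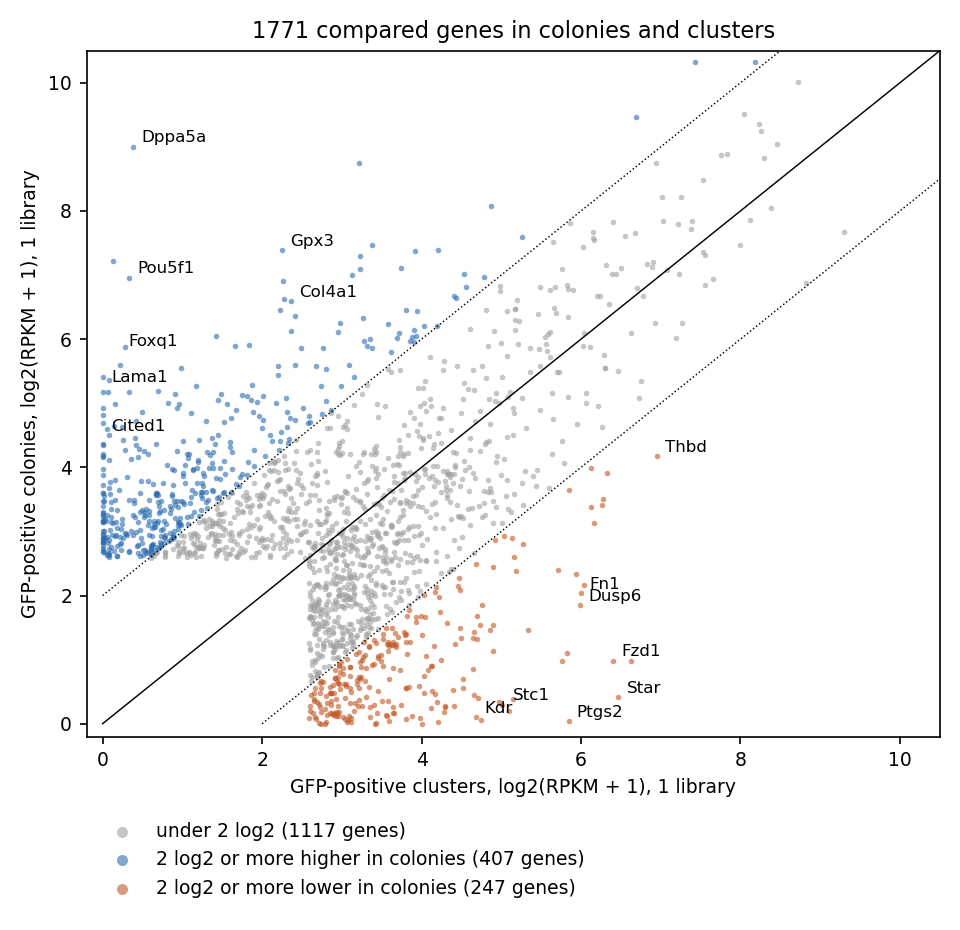
Levels of the 1771 compared genes, log2(RPKM + 1), in the clusters (x axis) and the colonies (y axis), 1 library each; the solid line marks equal levels and the dotted lines 2 log2 units. The 407 much higher genes lie above the upper dotted line, with Dppa5a and Pou5f1 near the left edge, and the 247 much lower genes lie below the lower one, with Star, Ptgs2 and Fzd1 farthest down; the empty corner is the 5 RPKM floor.

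Spread between other pairs of libraries is given over the 3144 genes before the condition on sets. Colonies and clusters were apart by 1 log2 unit or more in 73.7% of them and by 2 or more in 44.9%. Within a set, these shares were 35.02% and 11.5% for GFP-negative replicates, 11.5% and 1.15% for ESC replicates 1 and 2 and 5.98% and 0.286% for MEF replicates 1 and 2. Across the sets they were 32.5% and 7.09% for MEF and 27.7% and 5.95% for ESC (replicate 3 against the mean of 1 and 2). Genes entered through their height in the colonies or the clusters, which raises the share of that pair alone, so the shares are a description. In the 1771 compared genes colonies and clusters were apart by 1 log2 unit or more in 68.5%, where the condition sets both cross-set shares to 0. Gene span moved with the difference. In the 399 shortest genes (span up to 4.88 kb) the median was 1.52, with 163 genes much higher and 42 much lower. In the 399 longest (20.02 to 199 kb) it was −0.84, with 40 much higher and 78 much lower. The same medians ran from 0.13 to −0.08 between the MEF of the 2 sets and from 0.27 to 0.04 between the ESC. Clusters minus the GFP-negative mean ran from −0.15 in short genes to 0.46 in long ones, and colonies minus ESC replicate 3 from 0.32 to 0.04. The part of gene span in any single result was not tested.

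**Figure D2:**
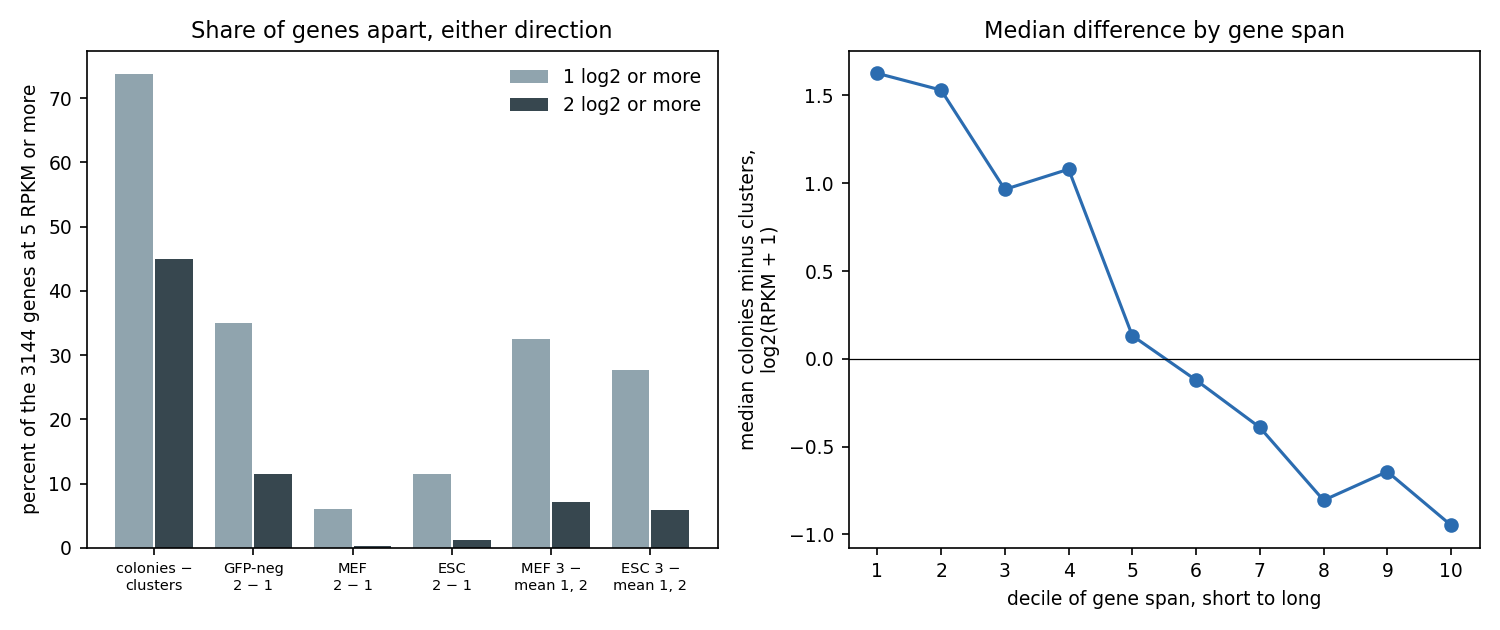
Left, percent of the 3144 genes at 5 RPKM or more in the colonies or clusters that were apart by 1 (light) or 2 (dark) log2 units or more; colonies against clusters came to 73.7% and 44.9%, on genes picked by their height in these libraries, and MEF and ESC across the sets to 32.5% and 27.7% at 1 log2 unit. Right, for compared genes, median of colonies minus clusters in log2(RPKM + 1) by decile of gene span, from 1.63 in the shortest decile to −0.95 in the longest.

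Sequences just upstream of 2 genes with opposite differences are shown: Pou5f1, since the reporter is named for it, and Ptgs2, one of the 15 lowest, whose window is in the RefSeq table. Each is 250 bases before the outermost RefSeq start in GRCm38.p6, on the plus strand, 5′ to 3′, and capitals mark the GC box GGGCGG. Coordinates are chr17:35505782-35506031 for Pou5f1 and chr1:150099781-150100030 for Ptgs2 (upstream of the first exon as RefSeq places it).
Pou5f1: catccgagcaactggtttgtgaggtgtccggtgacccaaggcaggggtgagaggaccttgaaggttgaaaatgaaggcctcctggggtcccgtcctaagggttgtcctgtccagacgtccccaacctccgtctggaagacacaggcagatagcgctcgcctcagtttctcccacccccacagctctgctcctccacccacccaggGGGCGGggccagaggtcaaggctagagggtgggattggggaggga
Ptgs2: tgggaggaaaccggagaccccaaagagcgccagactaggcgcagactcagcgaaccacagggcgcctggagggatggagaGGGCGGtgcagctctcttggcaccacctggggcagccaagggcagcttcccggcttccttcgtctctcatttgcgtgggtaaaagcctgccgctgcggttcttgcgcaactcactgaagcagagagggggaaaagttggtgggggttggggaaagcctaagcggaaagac
The GC box was found once in each, 45 to 40 bases before the start of Pou5f1 and 170 to 165 before that of Ptgs2. In all 32851 RefSeq windows of this length it was in 32.7% on either strand. Neither window held the cAMP response half-site TGACG (17.8% of windows) or the TATA box TATAAA (12.4%). Bases after the outermost start were not searched, so sites there or before a later start would be missed. RefSeq sequences matched 20 of the 33 genes with the largest differences or on the marker list, and a match of letters is a description only.

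Pluripotency genes were higher in the colonies, but only a part of the network reached the levels of ESC. Dppa5a, which encodes an RNA-binding protein found in pluripotent cells, was 0.299 RPKM in the clusters and 513 in the colonies, and 0, 0 and 0.831 in MEF, 0.161 and 0.344 in GFP-negative cells and 691, 552 and 687 in ESC. It was 1716-fold higher in the colonies (95% counting interval 585 to 8290.5), from 3 estimated reads in the clusters. The colonies lay just under the lowest ESC library, and the clusters among MEF and GFP-negative cells.

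Pou5f1 was 0.2603 RPKM in the clusters and 124 in the colonies, and 0, 0 and 0.154 in MEF, 0.191 and 0.429 in GFP-negative cells and 86.1, 95.6 and 152 in ESC. It was 475-fold higher in the colonies (95% counting interval 265 to 950.3), and the colonies lay inside the ESC range. Outside this comparison, ESC exceeded MEF for both (log2 change 9.03 ± 0.37 SE, limma adjusted p = 1.77e-05 for Dppa5a; log2 change 6.70 ± 0.33 SE, limma adjusted p = 2.42e-05 for Pou5f1). In that fit 739 of 8211 genes (9%) were called higher and 772 (9.4%) lower, at adjusted p under 0.05 and 1 log2 unit or more. The counts were 373 and 522 without MEF replicate 1, 414 and 520 without MEF replicate 2, 447 and 440 without ESC replicate 1 and 456 and 454 without ESC replicate 2.

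Of 21 measured core pluripotency factors 5 were compared, of which 4 were higher and 1 lower (median 2.89). Among all compared genes 38.4% were higher and 30.2% lower. Nr0b1, a nuclear receptor of the network, was at 0 in the clusters, 6.43 in the colonies and 9.903, 9.495 and 12.5 in ESC. Tcl1, an Akt cofactor, was at 0 in the clusters and 8.61 in the colonies, above the ESC values of 1.17, 1.23 and 3.19. Against a floor of 3 reads these are at least 79.7-fold higher for Nr0b1 and at least 154-fold higher for Tcl1. The T-box factor Tbx3 was 0.662 RPKM in the clusters and 6.59 in the colonies, where GFP-negative cells already held 4.03 and 6.398. Klf2, a Krüppel-like factor of naive cells, ran the other way. It was 25.5 RPKM in the clusters and 1.898 in the colonies, and 9.93, 12.4 and 22.6 in MEF, 0.0344 and 0.4797 in GFP-negative cells and 29.5, 49.2 and 38.9 in ESC, so that the colonies were below every MEF and ESC library and above both GFP-negative ones.

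Other factors of the core stayed under 5 RPKM in the colonies and so were not compared. Nanog was 0.141 RPKM in the clusters and 0.0418 in the colonies, against 52.5, 51.7 and 55.4 in ESC. Sox2 was 0.365 RPKM in the clusters and 2.797 in the colonies, against 105, 93.6 and 89.999. Sall4, another transcription factor of this network, stood just under the floor at 4.85 RPKM in the colonies and 0.0172 in the clusters, with 13.6, 15.4 and 14.6 in ESC. It was 283-fold higher in the colonies (95% counting interval 95.98 to 1367), from 3 estimated reads. Zfp42 (Rex1) was 0.113 RPKM in the clusters and 2.87 in the colonies, and here ESC themselves ranged over 28.2, 30.4 and 4.803. Esrrb was 0.0524 RPKM in the clusters and 0.483 in the colonies, with 2.57, 2.81 and 2.31 in ESC. Each of these 5 was thus below all 3 ESC libraries.

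Of 29 measured pluripotency markers 4 were compared and all 4 were higher (median 2.95), beside 38.4% of all compared genes. Besides Dppa5a these were Ooep, an oocyte and embryo protein (0.0429 RPKM in the clusters and 8.52 in the colonies, ESC 11.9, 20.5 and 11.8), the glucose transporter Slc2a3 (0.3599 RPKM in the clusters and 7.88 in the colonies, ESC 15.7, 15.9 and 11.6) and Bex1 (2.98 RPKM in the clusters and 11.2 in the colonies, ESC 67.9, 59.7 and 66.2). All 3 were below the ESC range in the colonies. Bex1 had only 41 estimated reads in the clusters, and its difference was −0.014 after the median of genes of like span was subtracted. Dusp9, a phosphatase of ERK, was 0.192 RPKM in the clusters and 82.02 in the colonies, and 0.885, 0.578 and 0.254 in MEF, 12.7 and 3.97 in GFP-negative cells and 13.9, 9.94 and 36.8 in ESC. It was left out of the comparison because ESC differed by 1.55 log2 units between the sets, and the GFP-negative cells held it above the clusters. Trap1a, a tumour rejection antigen gene on no list, was 0.04998 RPKM in the clusters and 35.2 in the colonies and 24.1, 14.98 and 18.4 in ESC, and E130012A19Rik (Epop in RefSeq), a partner of Polycomb and elongin proteins, was 0.0965 RPKM in the clusters and 148 in the colonies and 30.5, 51.3 and 54.6 in ESC.

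**Figure D3:**
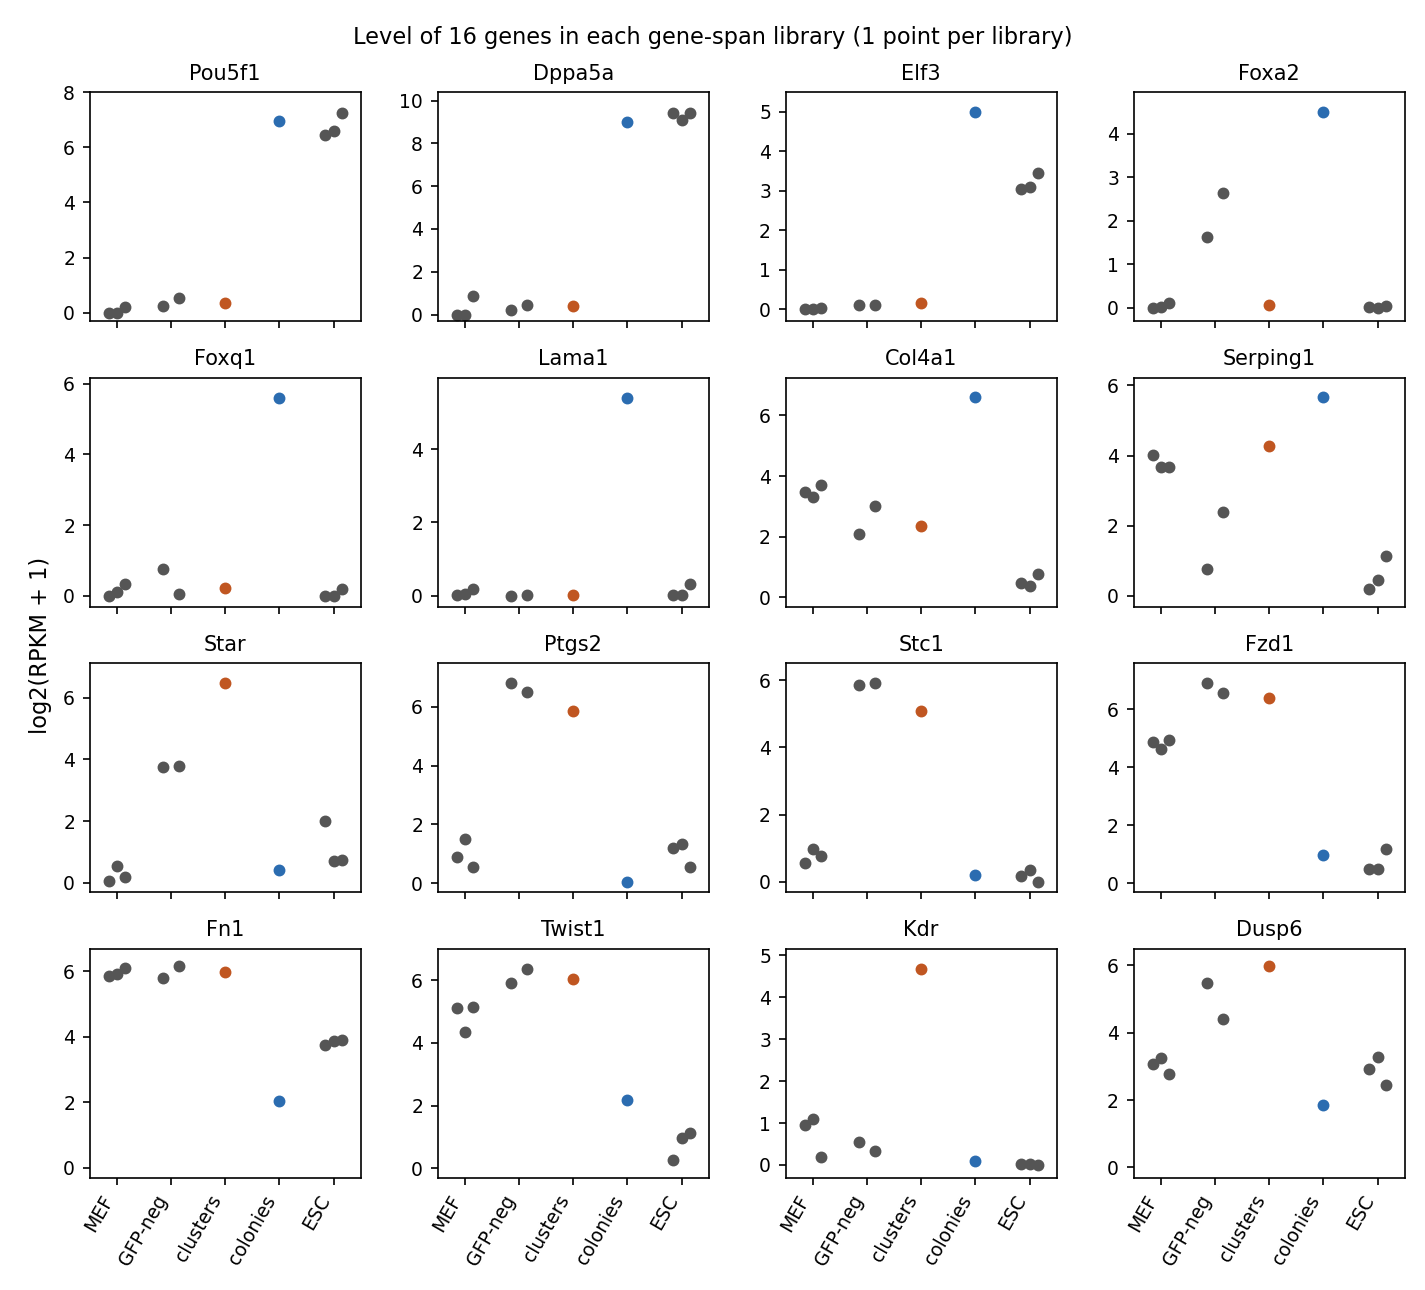
Level of 16 genes, log2(RPKM + 1) with an axis of its own for each gene, with 1 point per library for MEF, GFP-negative cells, clusters (orange), colonies (blue) and ESC. Pou5f1 and Dppa5a in the colonies sit with ESC; Foxq1, Lama1 and Col4a1 stand above all other libraries in the colonies; Ptgs2, Stc1 and Fzd1 are high in GFP-negative cells and clusters and low in the colonies, and Kdr is high in the clusters.

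Of 10 measured genes on a list of primitive endoderm regulators 6 were compared, with 4 higher, 1 lower and 1 apart by under 1 log2 unit (median 3.15). Among all compared genes 38.4% were higher. The largest differences were of Foxq1 (5.39), Cited1 (4.82) and Foxa2 (4.42), whereas Gata4 differed by 1.87, Gata6 by 0.71 and Pdgfra by −1.26. Whether Foxq1 and Cited1 stand for primitive endoderm here was not tested. Foxa2, a forkhead factor of endoderm, was 0.0538 RPKM in the clusters and 21.6 in the colonies, and 0, 0.0135 and 0.0748 in MEF, 2.08 and 5.25 in GFP-negative cells and 0.01803, 0 and 0.0239 in ESC. It was 401-fold higher in the colonies (95% counting interval 108 to 3244), from 2 estimated reads. GFP-negative cells, in which Foxa2 rose over MEF (log2 change 2.09 ± 0.28 SE, limma adjusted p = 0.0048), lay between the clusters and the colonies. In that fit 275 of 8211 genes (3.35%) were called higher and 277 (3.37%) lower. The counts were 44 and 38 without GFP-negative replicate 1 and 219 and 284 without replicate 2, where the lone remaining library is assumed to vary like the other groups. They were 124 and 130 without MEF replicate 1 and 130 and 143 without MEF replicate 2. Without ESC replicate 1 they were 165 and 143, and without ESC replicate 2 they were 182 and 154. Foxq1, another forkhead factor, was 0.1602 RPKM in the clusters and 47.6 in the colonies, with at most 0.7095 in the other 8 libraries. Cited1, a transcriptional coactivator, was at 0 in the clusters and 27.3 in the colonies, with at most 0.603 elsewhere. Foxq1 overlaps another annotated gene on the opposite strand, and how strand was handled is not stated in those sources that were used.

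The GATA factors differed less. Gata4 was 1.14 RPKM in the clusters and 6.82 in the colonies, with at most 0.0431 elsewhere, and was 5.98-fold higher in the colonies (95% counting interval 5.53 to 6.46). Gata6 was 2.904 RPKM in the clusters and 5.39 in the colonies (0.71 log2 units, which turns negative when centred). In MEF and GFP-negative cells Gata6 ranged from 0.167 to 1.02, so both libraries lay above all others. Pdgfra, the receptor for platelet-derived growth factor that also marks fibroblasts, was lower, with 21.6 RPKM in the clusters and 8.45 in the colonies, and 6.89, 7.21 and 6.17 in MEF, 11.01 and 13.7 in GFP-negative cells and 0.262, 0.2302 and 0.0652 in ESC.

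Of 20 measured secreted and surface genes of endoderm 8 were compared, with 6 much higher, 1 lower and 1 much lower (median 3.76). Among all compared genes 23% were much higher and 13.9% much lower. Laminin alpha 1 (Lama1), the alpha chain of basement membrane laminin, was 1 estimated read in the clusters and 51797 in the colonies. Its level was 41.3 RPKM in the colonies and at most 0.235 in the 9 other libraries on this scale. Lamc1, the gamma chain of the same laminin, was 2.505 RPKM in the clusters and 33.7 in the colonies, and 6.67, 6.88 and 3.84 in MEF, 2.63 and 3.74 in GFP-negative cells and 1.98, 2.33 and 2.897 in ESC. The type IV collagen chain Col4a1 was 4.13 RPKM in the clusters and 95.5 in the colonies, and 10.1, 8.83 and 12.1 in MEF, 3.28 and 7.03 in GFP-negative cells and 0.377, 0.289 and 0.698 in ESC. Its partner Col4a2, a head-to-head neighbour with which it overlaps in the annotation, was 3.59 RPKM in the clusters and 42.5 in the colonies, and 5.24, 4.74 and 8.58 in MEF, 4.14 and 5.36 in GFP-negative cells and 0.134, 0.134 and 0.407 in ESC. The colonies thus held these 4 chains above all other libraries, the clusters held Col4a1 and Col4a2 within or under the MEF and GFP-negative range, and ESC held both collagen chains below 1 RPKM. Fold differences were 23.1-fold higher in the colonies (95% counting interval 22.4 to 23.9) for Col4a1 and 13.4-fold higher in the colonies (95% counting interval 12.9 to 14.01) for Lamc1.

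Apoa1, the main protein of high-density lipoprotein, was at 0 in the clusters and 17.4 in the colonies, at least 97.1-fold higher. Srgn, the core protein of a secretory granule proteoglycan, was 0.977 RPKM in the clusters and 45.9 in the colonies, with 0.532 and 1.23 in GFP-negative cells. The 2 members that ran the other way were Thbd (thrombomodulin, 123 RPKM in the clusters and 17.1 in the colonies) and Nid1 (nidogen, 10.4 RPKM in the clusters and 4.22 in the colonies), and GFP-negative cells held 57.4 and 138 RPKM of Thbd and 30.03 and 33.998 of Nid1. Gpx3, a secreted glutathione peroxidase on no list, was 3.75 RPKM in the clusters and 166 in the colonies, and 8.404, 6.595 and 12.8 in MEF, 9.23 and 3.76 in GFP-negative cells and 0.892, 4.37 and 2.03 in ESC.

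Epithelial genes were higher in the colonies in all 4 compared of 27 measured (median 3.91), beside 38.4% of all compared genes. All 4 were under 1 RPKM in the clusters and so entered through the colonies, which fixed their direction. Elf3, an epithelial ETS factor, was 0.114 RPKM in the clusters and 30.8 in the colonies, and 0, 0 and 0.0212 in MEF, 0.0737 and 0.07905 in GFP-negative cells and 7.28, 7.57 and 9.88 in ESC. Cldn6, a tight junction claudin, was at 0 in the clusters, 24.8 in the colonies and 5.76, 3.03 and 9.49 in ESC. The adhesion molecule Epcam was 0.0296 RPKM in the clusters and 7.98 in the colonies and 5.18, 7.14 and 6.07 in ESC, and Lsr, a receptor at tricellular junctions, was 0.161 RPKM in the clusters and 5.97 in the colonies and 0.969, 0.298 and 1.37 in ESC. All 4 were above the ESC range in the colonies, as were 49.3% of all compared genes. Elf3, Cldn6 and Epcam were called higher in ESC than in MEF, beside 9% of all tested genes. E-cadherin (Cdh1) stayed under the floor, with 1.71 RPKM in the clusters and 2.15 in the colonies and 5.56, 6.22 and 6.096 in ESC, so it was apart by little. Snai1, the repressor of E-cadherin and the only compared gene of 11 mesenchymal transition genes, was higher in the colonies (2.74 RPKM in the clusters and 18.4 in the colonies).

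Other genes among the 15 highest differences were Dpcr1, a mucin-like gene (0.212 and 57.7 RPKM in clusters and colonies), Pgc, progastricsin (0 and 29.5), Ly6k (0 and 35.03) and Cyp26a1, the enzyme that breaks down retinoic acid (0.0603 and 39.9). Each was under 1 RPKM in every other library on this scale. Tax1bp3, a small PDZ protein, was 0.258 RPKM in the clusters and 35.1 in the colonies, and 5.16, 7.11 and 7.54 in MEF, 0.5199 and 6.704 in GFP-negative cells and 1.25, 0.584 and 1.72 in ESC. Gm6265 is a pseudogene of a cytochrome oxidase subunit whose reads may belong to its parent gene, so its 8.29 and 428 RPKM are uncertain. Of the 15, 6 were at 5 RPKM or more in all 3 ESC libraries, beside 38.6% of all compared genes, and 7 were under 1 RPKM in all 3, beside 13.6%. Of the 8 that could be tested by limma, 5 were called higher in ESC than in MEF, beside 9% of all tested genes, and 0 higher in GFP-negative cells than in MEF, beside 3.35%.

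Among the 15 lowest differences, Star, Ptgs2 and Stc1 were also higher in GFP-negative cells than in MEF. Over all 247 much lower genes, 31.2% were at 5 RPKM or more in both GFP-negative libraries, beside 35.5% of all compared genes. Star, the protein that carries cholesterol into mitochondria for steroid synthesis, was 87.5 RPKM in the clusters and 0.335 in the colonies, and 0.0493, 0.453 and 0.137 in MEF, 12.5 and 12.7 in GFP-negative cells and 3.02, 0.616 and 0.671 in ESC. It was 261-fold lower in the colonies (95% counting interval 182 to 377). GFP-negative cells held more Star than MEF (log2 change 3.50 ± 0.43 SE, limma adjusted p = 0.00357), the clusters held still more, and the colonies lay inside the range of MEF. It was the only compared gene of 10 measured steroidogenic genes. Cyp11a1, which makes the first steroid from cholesterol, was 1.27 RPKM in the clusters and 0.0332 in the colonies, under the floor.

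Ptgs2 (cyclooxygenase 2, the inducible enzyme of prostaglandin synthesis) was 56.4 RPKM in the clusters and 0.0252 in the colonies, and 0.877, 1.84 and 0.461 in MEF, 110.1 and 89.1 in GFP-negative cells and 1.27, 1.55 and 0.455 in ESC. The colonies held 2 estimated reads against 4106 in the clusters. Stc1, a secreted glycoprotein hormone, was 33.1 RPKM in the clusters and 0.151 in the colonies, and 0.4696, 0.959 and 0.703 in MEF, 56.5 and 58.8 in GFP-negative cells and 0.1197, 0.276 and 0.001 in ESC. It was 220.02-fold lower in the colonies (95% counting interval 139.96 to 364). For both, the clusters were below the GFP-negative cells and far above MEF, and the colonies were below every MEF library. ESC replicate 3 at 0.001 stands for no reads in its library set. GFP-negative cells rose over MEF for both (log2 change 5.66 ± 0.41 SE, limma adjusted p = 0.000421 for Ptgs2; log2 change 5.11 ± 0.30 SE, limma adjusted p = 0.000221 for Stc1).

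A list named secreted factors of treated cells had 18 measured genes. Of these 4 were compared, with 3 lower and 1 apart by under 1 log2 unit (median −2.19), beside 30.2% lower of all compared genes. Of those left out by the condition on sets, Timp1 (0.97 log2 units) and Saa3 (0.79) were higher in the colonies and the rest were lower. Igfbp3, which binds insulin-like growth factors, was 68.97 RPKM in the clusters and 9.41 in the colonies, with 99.5, 92.2 and 159.9 in MEF. GFP-negative cells held a mean of 25.2 of it. Angptl4, a lipase inhibitor, was 8.52 RPKM in the clusters and 2.09 in the colonies, with 24.5 and 41.1 in GFP-negative cells. Matrix Gla protein (Mgp) was 5.56 RPKM in the clusters and 4.28 in the colonies and 147, 160.2 and 162 in MEF. Its GFP-negative mean was 9.28, so the means of Igfbp3 and Mgp were both lower in GFP-negative cells than in MEF. Some other genes among the 15 lowest were present in GFP-negative cells too. They were Fgl2 (31.1 RPKM in the clusters and 0.226 in the colonies, GFP-negative 68.8 and 69.03), the water channel Aqp5 (34.3 RPKM in the clusters and 0.3001 in the colonies, GFP-negative 12.9 and 15.1) and the tubulin Tubb4 (25.8 RPKM in the clusters and 0.0387 in the colonies, GFP-negative 20.3 and 18.4). Il33, an alarmin, was 9.23 RPKM in the clusters and 0.0727 in the colonies and 17.7 and 7.22 in GFP-negative cells, and the chemokine receptor Cxcr7 was 11.6 RPKM in the clusters and 1.34 in the colonies and 12.7 and 12.1. Tbce, a tubulin chaperone, was 97.9 RPKM in the clusters and 0.979 in the colonies, and Abi1, an actin regulator, was 55.6 RPKM in the clusters and 1.15 in the colonies, and both, like Fgl2, overlap another coding gene on the opposite strand. Ankrd12 was 24.1 RPKM in the clusters and 0.3597 in the colonies.

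Of the 15 lowest differences, which were picked for their height in the clusters, 11 were at 5 RPKM or more in both GFP-negative libraries, beside 35.5% of all compared genes. Kdr and Zfp799 were under 1 RPKM in both, as were 12.3% of all compared genes. By limma, 11 of the 13 tested were called higher in GFP-negative cells than in MEF, beside 3.35% of all tested and 5.97% of the compared genes. For ESC against MEF 0 of the 13 were called higher, beside 9% and 9.04%.

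Fibroblast genes were lower in all 4 compared of 23 measured (median −2.68), beside 30.2% of all compared genes. Over the 15 at 5 RPKM or more, before the condition on sets, the median was −1.63. Of those left out, Col1a1 (0.26 log2 units), Col1a2 (0.14) and Vim (0.76) were not lower in the colonies, and the rest were. Fibronectin (Fn1) was 62.8 RPKM in the clusters and 3.11 in the colonies, and 56.7, 60.1 and 68.6 in MEF, 54.97 and 71.3 in GFP-negative cells and 12.6, 13.8 and 13.9 in ESC. The mesenchymal factor Twist1 was 64.5 RPKM in the clusters and 3.48 in the colonies, and 33.4, 19.5 and 34.4 in MEF, 59.6 and 82.001 in GFP-negative cells and 0.2102, 0.962 and 1.16 in ESC. For both, the clusters were inside the range of MEF and GFP-negative cells together. The colonies were below all ESC for Fn1 and above all ESC for Twist1. The elastic fibre protein Fbln2 (5.94 RPKM in the clusters and 1.47 in the colonies) and the proteoglycan Bgn (22.04 RPKM in the clusters and 8.202 in the colonies) differed less. Bgn was 286, 296 and 321 in MEF and was 30.9 and 35.1 in GFP-negative cells. Thbs2, a matricellular protein, was 53.2 RPKM in the clusters and 0.9795 in the colonies, and 34.2, 35.8 and 31.9 in MEF, 99.3 and 105 in GFP-negative cells and 1.04, 0.962 and 0.565 in ESC, and myosin light chain Myl9 was 12.6 RPKM in the clusters and 8.51 in the colonies. These 2 were the compared members of 21 contractile and TGF-beta response genes.

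Matrix proteases and their inhibitors were split, with 4 of 7 compared lower, 2 higher and 1 under 1 log2 unit (median −1.12). Plau (urokinase) was 30.4 RPKM in the clusters and 0.266 in the colonies, and 3.37, 6.53 and 9.15 in MEF, 2.605 and 11.4 in GFP-negative cells and 0.0894, 0 and 0.0445 in ESC. The inhibitor Timp2 was 28.1 RPKM in the clusters and 1.75 in the colonies, Mmp19 was 6.83 RPKM in the clusters and 0.867 in the colonies and Mmp14 was 16.9 RPKM in the clusters and 7.26 in the colonies. Cathepsin L (Ctsl) was 264 RPKM in the clusters and 730.1 in the colonies, with 383 and 277 in GFP-negative cells, and the complement inhibitor Serping1 was 18.5 RPKM in the clusters and 49.5 in the colonies. Both of these were higher in the colonies than in any other library on this scale.

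Wnt pathway genes were lower in 5 of 6 compared (median −2.49), beside 30.2% of all compared genes. The receptor Fzd1 was 83.3 RPKM in the clusters and 0.979 in the colonies, and 28.2, 23.97 and 29.5 in MEF, 119.7 and 94.3 in GFP-negative cells and 0.413, 0.396 and 1.28 in ESC. It was 85.1-fold lower in the colonies (95% counting interval 62.6 to 119), and the colonies lay among the ESC values. The ligands Wnt5a (6.68 RPKM in the clusters and 0.123 in the colonies) and Wnt4 (11.7 RPKM in the clusters and 1.68 in the colonies) and the target Sp5 (5.67 RPKM in the clusters, no reads in the colonies) were lower too. The effector Ctnnb1 was 25.3 RPKM in the clusters and 9.58 in the colonies. The secreted antagonist Dkk1 was the exception, with no reads in the clusters and 19.3 RPKM in the colonies, and at most 0.547 elsewhere.

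In other signalling lists few genes were compared. Dusp6, the ERK phosphatase induced by ERK, was 62.2 RPKM in the clusters and 2.596 in the colonies, and 7.45, 8.599 and 5.79 in MEF, 43.6 and 20.1 in GFP-negative cells and 6.57, 8.65 and 4.43 in ESC, so that the colonies were below every other library. Bmp4 was 18.6 RPKM in the clusters and 0.209 in the colonies and Bmp2 7.58 RPKM in the clusters and 3.85 in the colonies, while the BMP target Id3 was 5.06 RPKM in the clusters and 25.1 in the colonies. GFP-negative replicates were 2.28 and 38.5 for Id3, wider apart than clusters and colonies. Of the retinoid genes Rdh10, which makes retinal, was 6.905 RPKM in the clusters and 0.449 in the colonies, and Cyp26b1 was 6.38 RPKM in the clusters and 0.516 in the colonies, opposite in direction to Cyp26a1. The patterning factors Hand2 (15.96 RPKM in the clusters and 0.789 in the colonies) and Hoxa10 (6.73 RPKM in the clusters and 0.6597 in the colonies) were lower.

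Lipid and cholesterol genes were lower in 8 of 9 compared (median −1.73), beside 30.2% of all compared genes. Lpl, lipoprotein lipase, was 19.04 RPKM in the clusters and 1.97 in the colonies, and 30.6, 29.5 and 27.1 in MEF, 6.14 and 6.53 in GFP-negative cells and 0.324, 0.184 and 0.311 in ESC. The sterol enzymes Sqle (12.4 RPKM in the clusters and 2.805 in the colonies) and Cyp51 (5.48 RPKM in the clusters and 1.79 in the colonies) were lower too. The lipid droplet protein Plin2 was 11.4 RPKM in the clusters and 2.35 in the colonies, the fatty acid carrier Fabp5 54.3 RPKM in the clusters and 15.7 in the colonies and the desaturase Scd1 28.9 RPKM in the clusters and 10.1 in the colonies. Insig1, which holds back sterol synthesis in the endoplasmic reticulum, was the only higher one (1.08 RPKM in the clusters and 17.4 in the colonies), with GFP-negative values of 1.23 and 6.596.

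Of 6 compared senescence and p53 genes, 4 were lower (median −1.22), where 30.2% of all compared genes were. Left out by the condition on sets were Bax, higher in the colonies by 2.23 log2 units, and Ccng1 (−0.93). Cdkn2a, which encodes p16 and p19, was 8.13 RPKM in the clusters and 0.597 in the colonies, and 0.0334, 0.0419 and 0.124 in MEF, 1.99 and 7.55 in GFP-negative cells and 0.0633, 0.131 and 0.816 in ESC. Cdkn1a (p21) was 26.5 RPKM in the clusters and 11.4 in the colonies, with 59.5 and 49.9 in GFP-negative cells. Mdm2 (7.99 RPKM in the clusters and 2.68 in the colonies) and Zmat3 (6.44 RPKM in the clusters and 1.34 in the colonies), both p53 targets, were lower by under 2 log2 units. Gadd45a and Phlda3 were apart by under 1 log2 unit.

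Cell cycle genes did not share a direction. Of 6 compared, 3 were higher, 1 lower and 2 under 1 log2 unit (median 1.04, or 0.13 centred). The replication genes Mcm2 (0.168 RPKM in the clusters and 5.52 in the colonies) and Pcna (4.37 RPKM in the clusters and 14.5 in the colonies) and the mitotic gene Birc5 (1.15 RPKM in the clusters and 8.403 in the colonies) were higher, with Mcm2 and Pcna below every ESC library and Birc5 inside the ESC range. Mki67, the Ki-67 antigen, was lower (10.4 RPKM in the clusters and 1.51 in the colonies), although ESC held 11.4, 11.3 and 8.98.

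Most compared glycolysis and respiratory chain genes were apart by under 1 log2 unit, whereas 68.5% of all compared genes were apart by 1 or more. Among 12 glycolysis genes 7 were apart by under 1 log2 unit, 4 lower and 1 higher (median −0.38). Pfkfb3, which sets the rate of glycolysis through fructose 2,6-bisphosphate, was 20.2 RPKM in the clusters and 0.211 in the colonies, and 1.91, 0.874 and 0.8302 in MEF, 4.405 and 1.45 in GFP-negative cells and 1.27, 0.487 and 0.394 in ESC. Ldhb was 10.8 RPKM in the clusters and 1.38 in the colonies and Gapdh 36.2 RPKM in the clusters and 77.05 in the colonies. Only 7 of 19 respiratory chain genes at 5 RPKM or more were compared, and the median of the 19 was 0.80. Among the 7 compared, 5 were apart by under 1 log2 unit and 2 higher (median 0.50, or −0.42 centred). These were Cox5b (2.36 RPKM in the clusters and 34.1 in the colonies) and Sdhd (3.99 RPKM in the clusters and 23.8 in the colonies), and GFP-negative replicates held 32.6 and 4.13 of Cox5b. Of 22 measured ribosomal protein genes only 8 passed the filter, with 6 higher and 2 under 1 log2 unit (median 1.40, or 0.49 centred). Among all compared genes 38.4% were higher. Rps24 was 5.81 RPKM in the clusters and 57.2 in the colonies, with 47.2 and 16.5 in GFP-negative cells. These genes are short and have many pseudogene copies, so their values are uncertain. The amino acid transporter Slc7a5 was lower (6.42 RPKM in the clusters and 1.32 in the colonies) and 3 other transporter or metabolite genes were apart by under 1 log2 unit.

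Stress and immune lists were mixed. Of 8 compared immediate early and heat shock genes 4 were lower, 1 higher and 3 under 1 log2 unit (median −1.03). Ier3 was 56.9 RPKM in the clusters and 11.6 in the colonies, with 201 and 210.3 in GFP-negative cells, and the chaperone Hspa8 was 83.3 RPKM in the clusters and 227 in the colonies. Of 5 interferon and antigen presentation genes, the factor Irf1 (9.92 RPKM in the clusters and 0.429 in the colonies) and the immunoproteasome subunit Psmb8 (11.5 RPKM in the clusters and 0.825 in the colonies) were lower, whereas its partner subunit Psmb9 (0.0194 RPKM in the clusters and 8.19 in the colonies) and the class I genes B2m (23.3 RPKM in the clusters and 70.5 in the colonies) and H2-D1 (32.6 RPKM in the clusters and 85.4 in the colonies) were higher. B2m and H2-D1 were both above every ESC library in the colonies. Psmb9 had 1 estimated read in the clusters.

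Kdr, the VEGF receptor of endothelium, was 24.6 RPKM in the clusters and 0.07199 in the colonies, and 0.922, 1.15 and 0.139 in MEF, 0.469 and 0.2503 in GFP-negative cells and 0.0148, 0.00905 and 0.001 in ESC. It was 342-fold lower in the colonies (95% counting interval 242 to 494). Des, the muscle intermediate filament, was 24.9 RPKM in the clusters and 1.496 in the colonies, with at most 2.36 elsewhere. Other endothelial genes went the opposite way, with 3 of 4 compared higher in the colonies, beside 38.4% of all compared genes. These were Esam (0.241 RPKM in the clusters and 13.4 in the colonies), Egfl7 (0.00855 RPKM in the clusters and 10.1 in the colonies) and Cdh5 (0.00784 RPKM in the clusters and 5.42 in the colonies), the last from 3 estimated reads. Zfp799, a zinc-finger gene, was 25.2 RPKM in the clusters and 0.314 in the colonies, with at most 4.42 elsewhere, and the claudin Cldn15 was 17.5 RPKM in the clusters and 0.0215 in the colonies. Of lists with 1 compared gene, the neural, embryonic and germline ones were higher in the colonies, with the neurofilament gene Nefl (0 RPKM in the clusters and 7.06 in the colonies), the cleavage-stage gene Gm4340 (0 RPKM in the clusters and 6.12 in the colonies), which has near-identical copies, and the testis tubulin Tuba3a (0.303 RPKM in the clusters and 6.72 in the colonies). The primed epiblast, DNA methylation, imprinted, mesendoderm, trophoblast, macrophage and keratinocyte lists had no compared gene.

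**Figure D4:**
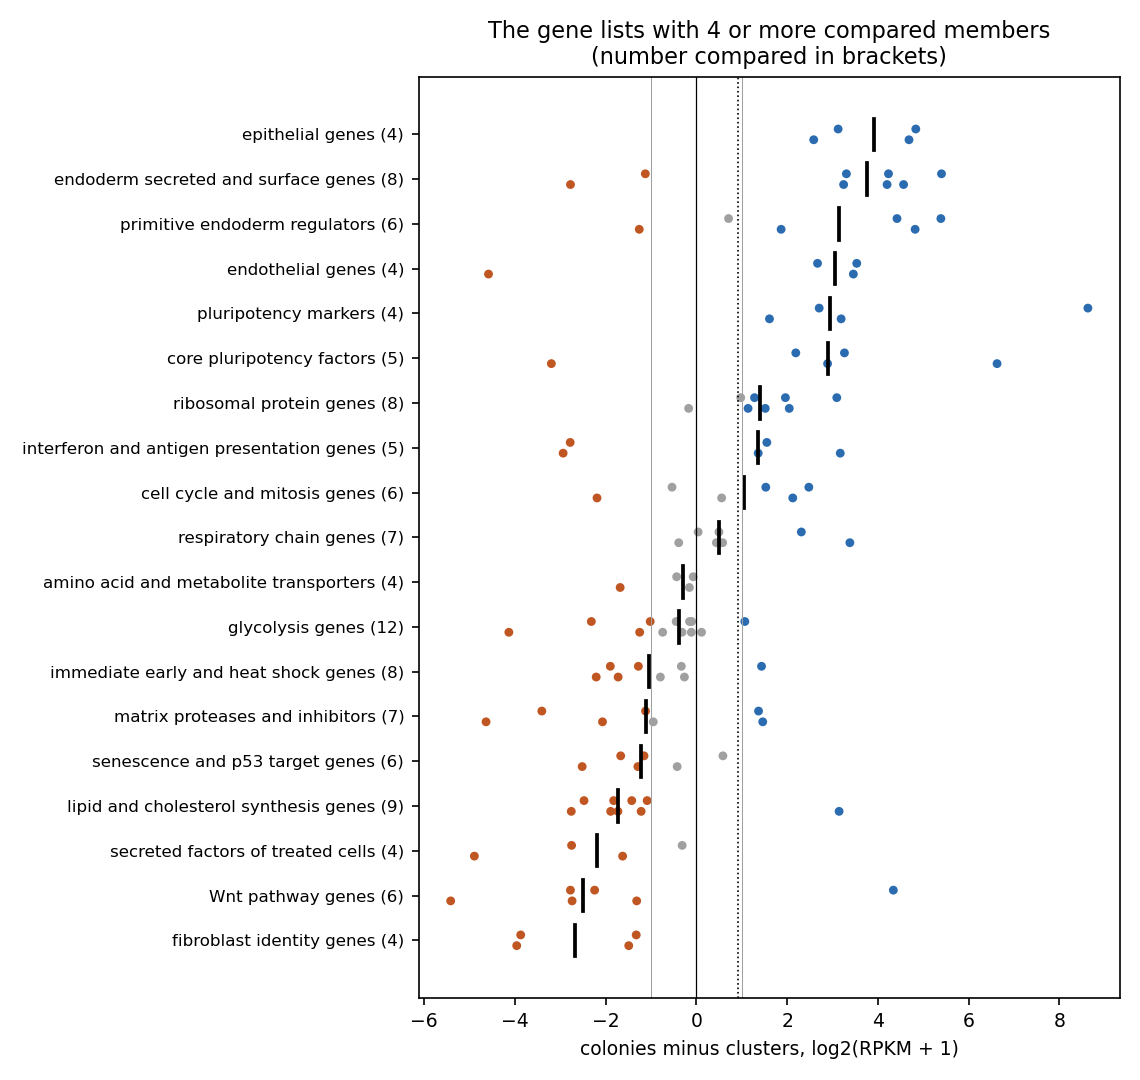
Colonies minus clusters, log2(RPKM + 1), for each compared member (points; blue 1 or more, orange −1 or less, grey between) of the 19 lists with 4 or more such members, with the median as a black bar and the median over 3144 genes (0.91) as a dotted line. Epithelial, endoderm, endothelial and pluripotency medians are at 2.89 or more, and fibroblast, Wnt and secreted factor medians at −2.19 or less.

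Contrasts that hold neither library were used to sort the genes. Of the compared genes 1659 could be tested. ESC exceeded MEF in 49 of 348 much higher genes (14.1%) and in 12 of 202 much lower genes (5.94%), beside 9.04% of the 1659. ESC fell below MEF in 28 much higher (8.05%) and 66 much lower genes (32.7%), beside 13.7%. GFP-negative cells exceeded MEF in 5 much higher (1.44%) and 51 much lower genes (25.2%), beside 5.97%. They fell below MEF in 31 much higher (8.91%) and 9 much lower genes (4.46%), beside 4.40%. Genes much lower in the colonies held more calls of a gain in GFP-negative cells and of a loss in ESC than the compared genes as a whole. They were picked for their height in the clusters, whereas the whole also holds genes that entered through the colonies. The shares are therefore a description that supports nothing by itself, and no test of them was made. The clusters library is of the same set as both GFP-negative libraries, and the colonies of the same set as MEF replicate 3 and ESC replicate 3.

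Levels in the other cells were set beside these classes. Of the 407 much higher genes, 188 (46.2%) were at 5 RPKM or more in all 3 ESC libraries, beside 38.6% of all compared genes. Another 69 (17.0%, beside 13.6%) were under 1 RPKM in all 3 ESC libraries, and 47 (11.5%, beside 4.40%) were under 1 RPKM in every MEF, GFP-negative and ESC library. The colonies lay above the ESC range in 283 of the 407 (69.5%), inside it in 71 and below it in 53. For all 1771 genes the colonies were above it in 49.3%. Of the 247 much lower genes, 77 (31.2%) were at 5 RPKM or more in both GFP-negative libraries, a share below the 35.5% of all compared genes, and 114 (46.2%, beside 13.6%) were under 1 RPKM in all ESC. In 194 of them (78.5%) the clusters lay above both GFP-negative values, beside 46.2% of all compared genes. Since the genes were chosen by their height in 1 of the libraries, these shares support nothing by themselves.

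**Figure D5:**
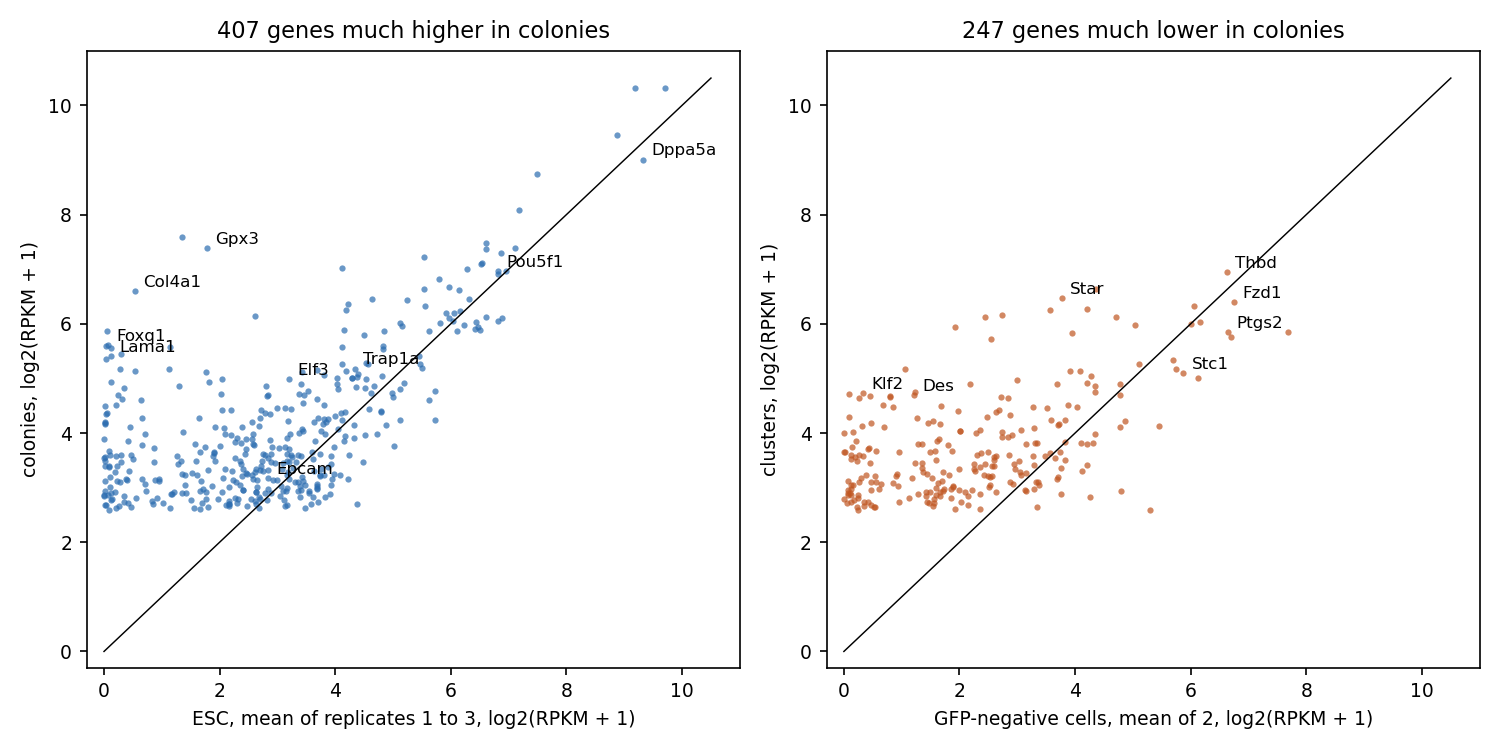
Left, the 407 much higher genes by their ESC mean (x axis, replicates 1 to 3) and their level in the colonies; right, the 247 much lower genes by their GFP-negative mean (x axis, n = 2) and their level in the clusters, all log2(RPKM + 1), with the line of equal levels. Dppa5a and Pou5f1 lie near the line, while Lama1 and Foxq1 lie at the left edge with almost no ESC signal; on the right Stc1, Fzd1 and Ptgs2 lie on or below the line and Star above it.

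The CiPSC lines and ESC replicate 4 are on another length scale, so their values are given as levels only. Of the 188 much higher genes present in ESC, 160 (85.1%) reached 5 RPKM in both CiPSC lines and 165 (87.8%) in ESC replicate 4. Of all 683 compared genes present in ESC these shares were 88.9% and 90.9%, so the much higher genes were near the background. Of the 69 that were under 1 RPKM in ESC replicates 1 to 3, 0 reached 5 RPKM in both lines, beside 1.67% of the 240 such genes among all compared. In ESC replicate 4, 2 did so (2.90%, beside 2.08%). Under 1 RPKM in both lines were 52 (75.4%, beside 72.9%). These shares were near the background too. Lama1 was 3.04 and 2.87 RPKM in lines 6 and 11 and 4.08 in ESC replicate 4. Foxq1 was 0.0936, 0.0572 and 0.0654, and Cyp26a1 0.0934, 0.0388 and 0.0652.

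Genes at the edges of the rules show how sharp they are. Supt4h1 (5.001 RPKM), Porcn and 1110002N22Rik were the last to be kept at 5 RPKM, and Snx18 (4.993 RPKM), Ahr and Ctns the first to be left out. Prkaca, 2310003C23Rik and Alkbh5 were just past 1 log2 unit, all lower in the colonies, at −1.0002, −1.002 and −1.003. Kat2a (0.9995), Sumo3 (0.996) and Fahd1 (−0.996) were just short of it.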

How the data were processed

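RNA libraries had been sequenced by an Illumina protocol from total RNA (QIAGEN RNeasy, per the labels' protocols), and the authors deposited 1 RPKM column for each of 13 libraries, a unit named per the file headers. Per the submitters' processing notes, TopHat 1.3.0 and the mm9 build were used. No counting tool, annotation or strand setting is given in the sources used here. Of 15184 rows, 8 that shared the symbol Ptprf were left out. RPKM times gene span (GRCm38 annotation, lengths only) gave whole reads within 0.05 steps for 83.1% to 84.9% of low values in 10 libraries and 11.5% to 12.1% in the other 3, which set the length scales and the estimated depths (8.88 to 17.7 M reads). Genes without reads stood at 0 in MEF 1 and 2, GFP-negative cells, clusters and ESC 1 and 2 (first set) and at 0.001 in MEF 3, colonies and ESC 3 (second set).

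Differences were taken on log2(RPKM + 1), so folds of low genes are understated there; a gene was kept if MEF replicate 3 against the mean of replicates 1 and 2, and ESC likewise, differed by under 1. R 4.3.3 and limma 3.58.1 (trend, Benjamini-Hochberg) fitted MEF, GFP-negative and ESC libraries (8; 8211 genes at 1 RPKM or more in 2; 5 residual degrees of freedom), only to sort genes. The script was tested on simulated data. Fold floors were 3 reads per library. Named genes were the 15 highest and 15 lowest differences at 10 RPKM or more, 7 given markers and up to 5 genes from each of 40 lists (708 genes measured, 138 compared). Genes outside this rule (Nanog, Sox2, Zfp42, Esrrb, Cdh1, Cyp11a1, list members beyond 5 and those in the closing section) were chosen after their values were seen. The members and lists were chosen with earlier results of these data known. Of 120 named genes found in the annotation, 23 overlap another coding gene. A few genes are not reported here.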

Additional observations from a re-analysis of the deposited data

How the results depend on the processing

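The colonies and the clusters had 1 library each, so their counts carry no test and counting intervals leave out any spread between cultures. Much of the size of the classes rested on the rules. Genes higher and lower by 1 log2 unit or more (680 and 534) came to 1720 and 1102 with the higher library at 1 RPKM or more, and 190 and 106 at 20 RPKM or more. They came to 1535 without the condition on library sets (782 lower), 266 and 252 with set differences under 0.5, 1180 and 814 after subtracting the mean set difference, and 428 and 827 after centring. Genes much higher and much lower (407 and 247) came to 144 and 67 with a pseudocount of 5, 129 and 55 at 20 RPKM or more, 1036 and 377 without the set condition, 160 and 132 with set differences under 0.5, and 151 and 502 after centring. Much lower genes were 387 after subtracting the mean set difference. Subtracting the median of the gene-span decile, chosen after seeing the data, left 234 much higher genes and turned Bex1 to −0.014. Leaving out a MEF or ESC replicate from the set condition gave 601 to 905 higher, 516 to 682 lower, 371 to 557 much higher and 234 to 320 much lower genes. Of 115 named genes past 1 log2 unit, 104 were past it in the same direction after centring and 96 after the decile subtraction. The cause of these shifts was not tested.

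The limma counts moved as well. GFP-negative cells against MEF gave 433 lower genes with a pseudocount of 0.1 and 159 with no filter on low values. Leaving out 1 library gave 44 to 252 higher and 38 to 284 lower genes there, and 373 to 832 higher and 440 to 855 lower for ESC against MEF. In limma, adjusted p for the 6 genes with printed values stayed under 0.05 in each alternative that could be computed, at most 0.0385 (Star without GFP-negative replicate 1). Foxa2 and Stc1 were under the low-value filter when either GFP-negative library was left out and have no value there.

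A replicate block gave 885 higher and 927 lower genes for ESC against MEF and 267 and 256 for GFP-negative cells against MEF. Deviations of same-numbered libraries correlated at 0.304 and 0.219 for ESC with MEF (numbers 1 and 2) and at 0.0933 and −0.152 for GFP-negative cells with MEF. Replicate 3 of MEF and ESC (0.575) has its number from no label, though both are of 1 library set. With only 2 labelled pairs the numbers were not taken as pairs. The block moved none of these 4 counts by over 1.5 times.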

Other observations

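At 10 RPKM or more there and under 1 RPKM in the 9 other gene-span libraries stood 22 genes in the colonies and 8 in the clusters. These 2 libraries have no replicate of their own kind that could hold such a gene too, so the counts cannot be compared with those of replicated groups. Those of the colonies, beyond the ones described above, included the signal Ihh (17.1 RPKM), prothrombin F2 (11.0), the pepsinogen Pga5 (10.2), the secretoglobin Scgb3a1 (19.6), the creatine kinase Ckmt1 (23.3), the factor Tcf23 (10.7) and the class II gene H2-Ab1 (11.7). Those of the clusters were Tigd3 (18.5), the mitochondrial fatty acid synthase Oxsm (16.6), the dopamine receptor Drd4 (14.997), Zfp810 (12.3), Tm4sf5 (11.6), Cml1 (11.5), the hypoxia-linked carbonic anhydrase Car9 (11.1) and 4931440F15Rik (10.89).

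Some of the largest gaps lay in genes that differed between the library sets and were left out for it. Apoe was 1.497 RPKM in the clusters and 332 in the colonies but differed by 3.74 log2 units between the MEF of the sets. Fabp3 (0.04897 RPKM in the clusters and 65.8 in the colonies), Pth1r (0 RPKM in the clusters and 39.4 in the colonies), Rhox6 (0 RPKM in the clusters and 34.9 in the colonies), Rhox9 (0 RPKM in the clusters and 40.1 in the colonies), Sparc (63.3 RPKM in the clusters and 697 in the colonies) and Lamb1 (3.25 RPKM in the clusters and 58.3 in the colonies) were higher in the colonies. The Rhox genes belong to a family of close copies, so their values are uncertain. Crabp1 (50.6 RPKM in the clusters and 0.155 in the colonies), Igfbp5 (109 RPKM in the clusters and 4.66 in the colonies), Igf2 (109.7 RPKM in the clusters and 5.65 in the colonies), Thy1 (64.6 RPKM in the clusters and 3.97 in the colonies) and Tnc (22.3 RPKM in the clusters and 0.1405 in the colonies) were lower. All 6 listed imprinted genes at 5 RPKM or more were left out by the same condition.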
